A study of Homo sapiens with 20 samples.

Results

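Axons are steered by guidance cues, and the 37 genes described here encode 3 of the main cue systems: Eph receptors with their ephrin ligands, Robo receptors with their Slit ligands, and the netrins with the receptors DCC, NEO1 and UNC5A to UNC5D. The rule that picks them uses gene names and no measured value, although the set was proposed with earlier results of these data known, so its counts are a description. For each name the coding record with the highest mean level was used. All 37 names were found, on 36 of the 20237 coding records, because EFNA3 and EFNA4 share 1 record. The levels come from poly-A RNA-Seq of neural progenitors made from the human embryonic stem cell line H1, an established line, sampled on 7 days of differentiation. Day 0 cells were progenitors kept dividing with FGF on Matrigel, and from then on FGF was withdrawn and BDNF, a neurotrophic factor, was given. There were 3 cultures on days 0, 1, 2, 4, 11 and 18, but only 2 on day 5, where the submitters had set 1 aside as an outlier. Cells for days 5, 11 and 18 were moved at day 4 to wells coated with poly-D-lysine and laminin. The change of surface and the time from day 4 to day 5 therefore cannot be told apart. The same holds for every comparison of a day up to day 4 with a later one, day 18 against day 0 among them. All groups are 1 line with no genetic change, and nothing in the labels says that the cultures of a day were derived separately.

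Ephs are receptor tyrosine kinases on one cell that meet ephrins on the next. A-type ephrins are held to the membrane by a lipid anchor and B-type ephrins cross it, and contact usually makes the growing tip of an axon turn away. Slits are secreted and repel axons through Robo receptors, as at the ventral midline of the spinal cord and hindbrain. Netrins attract axons through DCC, while UNC5 receptors, alone or with DCC, turn that response into repulsion.

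Each level is an FPKM value, a count of fragments divided by transcript length and library size, so levels of different genes can be set side by side. The files hold 1 value per record and day, an estimate over the cultures of that day. No spread between cultures can therefore be given, no test of a difference between days could be computed from these values, and n is 1 estimate per day throughout. The depth behind a value is unknown. In the authors' table of adjacent days, 8 of the 37 genes were marked at 1 step or more as having too few fragments for a test, EPHA1 and ROBO4 among them at all 6 steps. EPHA5 carried a different mark at the last step, where the estimate behind its test had failed, and 28 genes carried neither mark. Changes are given as differences in log2(FPKM + 0.1), a scale that understates the change of low genes. As deposited, the median of the 11793 coding records with a mean of at least 1 FPKM was lower by 0.60 on that scale at day 18 than at day 0, so changes are stated relative to this median unless called as deposited. The words rose and fell are kept for changes of at least 2-fold on the relative scale, a size and not a test. In these bulk cultures, fewer cells of a type and less RNA per cell cannot be told apart.

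Markers of progenitors, the labelled identity, and of neurons were both present from day 0. All 10 progenitor markers had a mean of at least 1 FPKM, with 4 risen (PAX6, HES5, SOX9 and FABP7), 1 fallen (PROM1) and a median change of 0.08. As deposited, 3 were at least 2-fold higher and 2 lower. The summed level of the 11 neuron markers was 1080, 1390 and 2048 FPKM at days 0, 5 and 18, with 7 risen and none fallen, or 7 higher and 1 lower as deposited. All 8 cell-cycle markers fell, from a sum of 588 to 105. Markers of other cells were present at day 0 as well. The 10 mesenchymal markers summed to 650.2 FPKM at day 0 and 57.9 at day 18, with 4 of the 6 expressed ones fallen and COL1A1 listed at 0 on every day. Most of the day 0 sum came from TAGLN, at 367 FPKM, and COL3A1, at 238, and DCN and PRRX1 were near 0. The 8 endothelial markers found summed to 39.0, 11.6 and 2.63 on days 0, 1 and 18, of which KDR gave 23.8 at day 0 and 0.700 at day 18. Floor plate markers were near 0, none with a mean of 1 FPKM, and FOXA2 never exceeded 0.00523. Among glial lists, SLC1A3, 1 of 2 expressed astrocyte genes, rose, and the microglial CSF1R shares its record with PDGFRB.

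Of the 36 records, 27 had a mean of at least 1 FPKM, and these hold 28 of the 37 genes. From day 0 to day 18, 15 of the 27 rose (55.6%) against 14.7% of all expressed coding records, and 4 fell (14.8%) against 12.1%. The share that fell was thus near the background and the share that rose was above it. Those that rose were EPHA3, EPHA4, EPHA5, EPHA6, EPHB1, EPHB2, EPHB3, EFNB3, SLIT1, ROBO1, ROBO2, ROBO3, NTN1, DCC and NEO1. EPHA2, EPHB4, EFNB2 and UNC5C fell. EPHA6, with a mean of 1.03 FPKM, passed the minimum only through days 11 and 18, which favours counting it as risen. The median change of the 27 records was 1.18, against 0 for all expressed coding records by construction, and the median size of a change, regardless of sign, was 1.42 against 0.54. This split depends on the scaling. As deposited, 7 of the 27 (EPHA5, EPHA6, EPHB1, EPHB2, ROBO2, ROBO3 and DCC) were at least 2-fold higher and 6 at least 2-fold lower at day 18, against 7.57% and 29.9% of expressed coding records, and EFNA5 and SLIT2 joined the lower group. EPHA7, the EFNA3-EFNA4 record, EFNB1, NTN4 and UNC5B were above 0 relative to the median and below 0 as deposited. NEO1 at 1.17 and EFNA2 at 0.81 were the nearest to the 2-fold limit on its upper side, and EFNB2 at -1.07 and SLIT2 at -0.79 the nearest on the lower side.

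**Figure D1:**
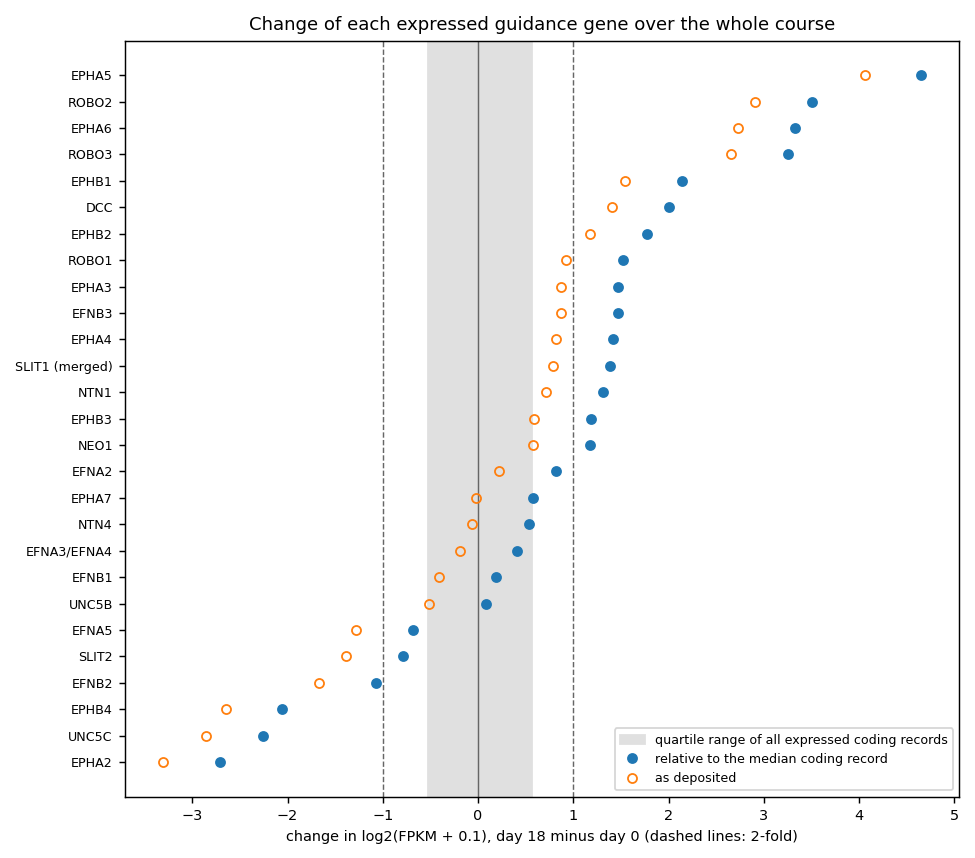
Change in log2(FPKM + 0.1) from day 0 to day 18 (x axis) for the 27 expressed guidance records (y axis), relative to the median coding record (filled) and as deposited (open). Dashed lines mark 2-fold and the grey band holds the quartile range of all expressed coding records. The filled points run from -2.71 for EPHA2 to 4.66 for EPHA5, with 15 records beyond the upper line and 4 beyond the lower one.

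The 250 bases before the gene start are shown for 3 receptors that fell (EPHA2, EPHB4 and UNC5C) and 3 from the same cue systems or from the Robo family that rose, so that opposite courses can be read beside the sequence. They were taken from RefSeq (GRCh38.p14), read 5′ to 3′ on the gene's strand, and each was found once in GRCh37, whose coordinates are the hg19 ones of the files. Capitals mark letters that match a searched motif on either strand: GGAATG (TEAD), TGANTCA (AP-1), CCGGAAG (ETS), CAGCTG and CAGATG (E-boxes) or GGGCGG (GC box). The RefSeq gene start lay between 0 bases (EPHA2) and 158 bases (EPHB1) from the outer end of the deposited record.
EPHA2 (chr1:16482565-16482814, minus strand): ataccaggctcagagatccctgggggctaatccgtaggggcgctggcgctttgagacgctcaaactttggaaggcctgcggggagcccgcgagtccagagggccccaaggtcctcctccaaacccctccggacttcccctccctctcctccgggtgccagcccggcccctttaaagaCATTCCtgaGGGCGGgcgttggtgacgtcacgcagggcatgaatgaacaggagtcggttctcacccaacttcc
EPHB4 (chr7:100425146-100425395, minus strand): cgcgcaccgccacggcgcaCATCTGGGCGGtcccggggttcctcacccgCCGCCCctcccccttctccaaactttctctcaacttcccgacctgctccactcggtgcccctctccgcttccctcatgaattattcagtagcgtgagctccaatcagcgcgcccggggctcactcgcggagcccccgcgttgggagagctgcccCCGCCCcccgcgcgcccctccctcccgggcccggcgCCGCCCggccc
UNC5C (chr4:96470125-96470374, minus strand): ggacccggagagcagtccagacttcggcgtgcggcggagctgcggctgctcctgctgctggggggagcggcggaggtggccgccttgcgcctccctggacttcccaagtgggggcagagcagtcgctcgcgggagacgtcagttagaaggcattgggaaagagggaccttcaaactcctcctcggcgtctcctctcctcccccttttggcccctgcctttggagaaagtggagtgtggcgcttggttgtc
EPHB1 (chr3:134513852-134514101, plus strand): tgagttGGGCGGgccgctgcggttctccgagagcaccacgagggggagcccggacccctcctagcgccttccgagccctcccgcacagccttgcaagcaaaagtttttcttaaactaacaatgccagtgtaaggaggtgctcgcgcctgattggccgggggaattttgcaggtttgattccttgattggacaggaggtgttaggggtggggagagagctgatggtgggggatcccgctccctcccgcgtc
ROBO3 (chr11:124735078-124735327, plus strand): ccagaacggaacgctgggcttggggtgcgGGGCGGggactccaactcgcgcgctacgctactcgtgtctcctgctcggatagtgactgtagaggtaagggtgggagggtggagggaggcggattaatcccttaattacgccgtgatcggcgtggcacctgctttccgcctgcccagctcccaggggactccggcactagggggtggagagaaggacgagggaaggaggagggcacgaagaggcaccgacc
DCC (chr18:49866317-49866566, plus strand): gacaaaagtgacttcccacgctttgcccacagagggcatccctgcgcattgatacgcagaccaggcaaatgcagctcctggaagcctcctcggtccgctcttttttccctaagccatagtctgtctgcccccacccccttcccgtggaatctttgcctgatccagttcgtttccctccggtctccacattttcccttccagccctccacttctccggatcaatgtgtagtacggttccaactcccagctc
The EPHA2 window holds 1 TEAD match and 1 GC box. That of EPHB4 holds 4 GC boxes and, overlapping a GC box, the CAGATG E-box. EPHB1 and ROBO3 hold 1 GC box each, and no searched motif lies in the windows of UNC5C and DCC. Of the 32 members with a window, 26 hold a GC box against 42.6% of all 35116 RefSeq windows of this length, 1 holds the TEAD letters against 11.9%, 4 hold CAGCTG against 14.0%, 1 holds CAGATG against 12.2%, and none holds the AP-1 or ETS letters, found in 6.6% and 8.5% of windows. The 2 sides are not alike, since 1 window per member is set against every RefSeq window. Base composition was not matched either. The windows shown hold between 56.0% (DCC) and 72.8% (EPHB4) G or C, against a median of 58.0% over all windows. The GC box share therefore cannot be read as an enrichment. A match is a stretch of letters and not a shown binding site.

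Among the EPHA receptors, which bind mainly A-type ephrins, EPHA2 went down while 4 others went up. EPHA2 (chromosome 1, 16450832 to 16482564, minus strand), a receptor also found on epithelial and stem cells, stood at 42.5, 23.6, 29.4, 20.0, 19.6, 6.74 and 4.21 FPKM on the 7 days in order. Day 0 was its own highest, and it was then the second highest of the 27 records. Its level fell 10.1-fold as deposited, and its relative change of -2.71 placed it at rank 140 from the lowest of the 11793 expressed coding records. EPHA5 (chromosome 4, 66185282 to 66535653, minus strand), which takes part in topographic mapping of axons, had 0.585, 1.02, 1.24, 1.53, 1.88, 5.32 and 11.3 FPKM, higher on each later day than on the one before. It rose 19.3-fold as deposited, with a relative change of 4.66 and rank 74 from the highest. EPHA6 (chromosome 3, 96533425 to 97467786, plus strand) had 0.472, 0.285, 0.397, 0.355, 0.465, 1.57 and 3.68 FPKM. It stayed under 0.5 FPKM up to day 5 and rose after that, by 3.32 over the whole course (rank 224 from the highest). Its mean of 1.03 FPKM reached the minimum only through days 11 and 18, the days behind its counted rises.

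EPHA3 and EPHA4, which were already well above 1 FPKM in progenitors, both reached their highest level at day 11. EPHA3 (chromosome 3, 89156674 to 89531282, plus strand) gave 9.41, 10.1, 10.4, 14.2, 14.8, 26.6 and 17.3 FPKM, and rose by 1.47 from day 0 to day 18 (0.87 as deposited). EPHA4 (chromosome 2, 222282749 to 222438922, minus strand), which binds ephrins of both types, gave 6.77, 6.65, 8.09, 12.2, 9.91, 17.0 and 12.0 FPKM. Its change was 1.42, or 0.82 as deposited, so the 2-fold size of both rests on the scaling. EPHA7 (chromosome 6, 93949742 to 94129300, minus strand) was the steadiest of the group, with 4.00, 3.39, 3.14, 3.72, 2.81, 3.32 and 3.95 FPKM, and its change was 0.58 relative to the median and -0.02 as deposited. The other 3 EPHA genes had a mean below 1 FPKM. EPHA1 never exceeded 0.0732 FPKM. EPHA8 was listed at 0 on day 0 and at 0.330 on day 18. EPHA10, which lacks an active kinase, went from 0.0436 to 1.19 and was higher on each later day than on the one before.

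Because FPKM is per length, the make-up of the family can be read from shares of its summed level, which do not depend on the scaling of a day. The sum of the 9 EPHA records was 63.8, 45.2, 61.4 and 54.0 FPKM on days 0, 1, 11 and 18. EPHA2 held 66.5%, 39.3%, 11.0% and 7.79% of it on days 0, 5, 11 and 18. Over the same course EPHA5 went from 0.917% to 20.9%, EPHA3 from 14.8% to 32.0% and EPHA4 from 10.6% to 22.3%. The leading receptor thus changed, with EPHA3 ahead of EPHA2 from day 11 on.

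The EPHB receptors, whose ligands are mainly the B-type ephrins, likewise had 1 member that fell, beside 3 that rose. EPHB4 (chromosome 7, 100400187 to 100425143, minus strand), also a receptor of veins, stood at 28.2, 17.3, 18.7, 15.3, 13.2, 8.22 and 4.40 FPKM. It was highest at day 0 and lowest at day 18, fell by 2.05 on the relative log2 scale and ranked 341 from the lowest. EPHB2 (chromosome 1, 23037331 to 23241822, plus strand), which acts in axon crossing and at synapses, had 16.6, 17.6, 19.1, 24.4, 25.3, 38.4 and 37.5 FPKM. It was highest at days 11 and 18 and rose by 1.77. EPHB1 (chromosome 3, 134514260 to 134979305, plus strand), the receptor that sends retinal axons to the same side of the brain, gave 3.99, 3.36, 3.35, 3.52, 5.09, 11.6 and 11.8 FPKM. Its level was flat up to day 4 and higher from day 5, with a change of 2.14. EPHB3 (chromosome 3, 184279587 to 184300195, plus strand) gave 6.56, 6.63, 6.33, 6.54, 7.07, 8.06 and 9.89 FPKM, with a change of 1.18 relative to the median and 0.58 as deposited. EPHB6, which lacks kinase activity, was listed at 0 on day 0 and reached 0.386 FPKM at day 18.

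Summed over the 5 EPHB records, the level was 55.3, 45.0, 66.4 and 64.0 FPKM on days 0, 1, 11 and 18. The share of EPHB4 went from 50.9% to 6.87% and that of EPHB2 from 30.0% to 58.6%. The ratio of EPHB2 to EPHB4 was 0.589, 1.02, 1.91, 4.67 and 8.53 on days 0, 1, 5, 11 and 18. These gene pairs, like all ratios given here, were chosen after their values had been seen.

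No A-type ephrin passed 2-fold relative to the median from day 0 to day 18, and only EFNA5 did as deposited. EFNA5 (chromosome 5, 106712591 to 107006596, minus strand), a repellent in topographic maps, had 19.9, 16.6, 14.3, 16.4, 15.8, 13.3 and 8.12 FPKM, with a change of -0.69 relative to the median and -1.28 as deposited. The record that holds EFNA3 and EFNA4 (chromosome 1, 155036213 to 155060006, plus strand) gave 13.5, 11.7, 13.8, 14.2, 13.6, 13.5 and 11.9 FPKM, and its value cannot be divided between the genes. With a highest level only 1.22 times its lowest, it was the flattest of all 27. EFNA2 (chromosome 19, 1286168 to 1299944, plus strand) ranged from 4.74 to 6.80 FPKM, with 5.53, 5.24, 6.80, 4.74, 5.41, 6.55 and 6.44 FPKM on the 7 days and a change of 0.81. EFNA1, a common ligand of EPHA2, had between 0.438 and 0.844 FPKM.

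The B-type ephrins held the highest level of all 27 records at day 0. EFNB2 (chromosome 13, 107142098 to 107187337, minus strand), also a marker of arteries, stood at 108, 62.6, 53.9, 64.1, 64.2, 43.8 and 33.9 FPKM. It was lower on every later day than at day 0 and fell by 1.07 over the whole course. EFNB3 (chromosome 17, 7608520 to 7614691, plus strand), a midline ligand that keeps corticospinal axons on their side, gave 13.6, 22.1, 18.1, 21.4, 23.7, 29.9 and 24.9 FPKM. It was lowest at day 0 and rose by 1.47 (0.87 as deposited). EFNB1 (chromosome X, 68048840 to 68066029, plus strand) had 33.2, 33.5, 32.1, 35.6, 38.4, 34.0 and 24.9 FPKM, with a change of 0.19 relative to the median and -0.41 as deposited. The summed level of the 3 genes was 155 FPKM at day 0 and 83.7 at day 18. EFNB2 held 69.8% of it at day 0 and 40.4% at day 18, and the ratio of EFNB3 to EFNB2 went from 0.126 to 0.736.

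Several of these records share exon bases with a noncoding record on the other strand, and the default library type of the programs named does not separate strands. The share of exon bases so covered was 99.4% for EFNB1, 95.0% for EFNB2, 88.3% for EFNA5, 83.9% for EFNB3 and 74.7% for UNC5B, and it exceeded 10% in 10 of the 27 records. The noncoding records over these 5 genes were listed at far lower levels, at most 2.68 FPKM over EFNB2 and at most 0.494 over the other 4. How fragments were divided between strands was not tested.

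EPHA2, EPHB4 and EFNB2 are also genes of vessels, and the summed levels of the endothelial and mesenchymal markers went down too, though not every marker did. The endothelial sum was 39.0, 11.6, 9.31, 5.18 and 2.63 FPKM at days 0, 1, 5, 11 and 18. Of its 8 genes found, 3 had a mean of at least 1. KDR and EGFL7 fell, and the ESAM record did not, with a change of 0.08. That record is merged with VSIG2, so its level cannot be assigned to ESAM alone. Below that mean, CDH5, a defining gene, had 2.34 FPKM at day 0 and at most 0.180 afterwards. TEK and TIE1 changed by -3.09 and -2.61, while CLDN5 and ERG changed by -0.01 and -0.035. The mesenchymal sum, carried mostly by TAGLN and COL3A1, was 650.2, 378, 299.9, 110.2 and 57.9 on the same days, and 4 of its 6 expressed genes fell. EFNB2 still stood at 33.9 FPKM at day 18, and a level in bulk RNA does not show which cells made it. The part of endothelial or mesenchymal cells in the falls of EPHA2, EPHB4 and EFNB2 was not tested.

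**Figure D2:**
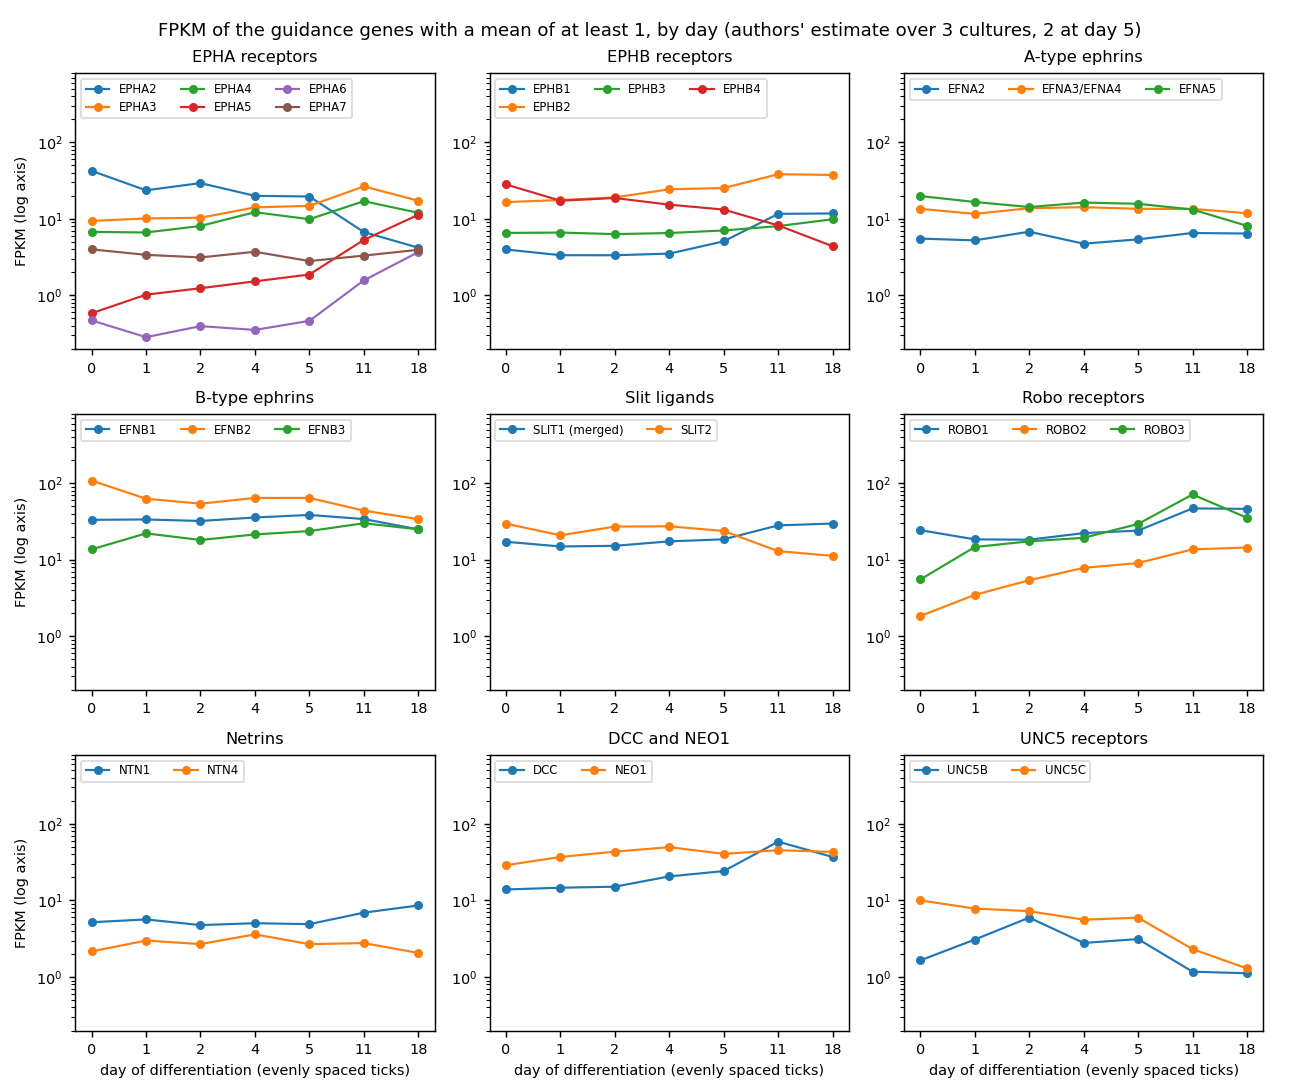
FPKM (y axis, log scale) of the expressed guidance genes on the 7 days (x axis, evenly spaced), 1 panel per gene family. Each point is a single estimate over the cultures of that day. By day 18 EPHA2 has descended below EPHA3, EPHA4 and EPHA5, and EPHB4 below all other members of its panel. EFNB2 is highest among the B-type ephrins on every day, and ROBO3 peaks at 71.1 FPKM on day 11.

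All 3 expressed Robo receptors rose. ROBO1 (chromosome 3, 78646388 to 79817059, minus strand), a receptor for Slit repulsion, had 24.3, 18.4, 18.2, 22.2, 24.0, 46.8 and 46.1 FPKM. It was at its 2 highest levels on days 11 and 18, and its change was 1.52 (0.92 as deposited). ROBO2 (chromosome 3, 77089294 to 77696661, plus strand), which acts with ROBO1, gave 1.84, 3.47, 5.39, 7.83, 9.04, 13.7 and 14.4 FPKM. Every later day was above the one before, and the level rose 7.84-fold as deposited, a relative change of 3.50 (rank 196 from the highest). ROBO3 (chromosome 11, 124735282 to 124751361, plus strand), which lets commissural axons cross the midline, stood at 5.51, 14.6, 17.4, 19.3, 29.3, 71.1 and 35.3 FPKM. It was highest at day 11, 12.9 times its day 0 level, and lower again at day 18. Its change over the whole course was 3.26 (rank 234 from the highest), and -0.73 from day 11 to day 18. ROBO4, the endothelial member, stayed at or below 0.0820 FPKM.

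The 4 Robo records together had 31.7, 36.5, 41.0, 49.4, 62.4, 132 and 95.9 FPKM on the 7 days. Within this sum ROBO1 held 76.6%, 35.6% and 48.1% on days 0, 11 and 18, and ROBO3 held 17.4%, 54.0% and 36.8%. The ratio of ROBO3 to ROBO1 was 0.227, 0.794, 1.52 and 0.766 on days 0, 1, 11 and 18. ROBO3 thus led the family at days 5 and 11, and ROBO1 on the other days.

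Of their ligands, SLIT2 was ahead of SLIT1 early and behind it late. SLIT2 (chromosome 4, 20255235 to 20620788, plus strand) had 29.6, 20.8, 27.1, 27.3, 23.7, 12.9 and 11.2 FPKM, with its lowest levels on days 11 and 18 and a change of -0.79 relative to the median and -1.39 as deposited. The record of SLIT1 (chromosome 10, 98757795 to 99052413, minus strand) gave 17.1, 14.9, 15.2, 17.4, 18.5, 28.1 and 29.7 FPKM. It was highest on days 11 and 18 and rose by 1.39 (0.79 as deposited). This record is merged with the neighbouring ARHGAP19, so its level cannot be assigned to SLIT1 alone. SLIT3 stayed between 0.212 and 0.391 FPKM. The Slit sum moved little, from 46.9 to 41.3 FPKM, while the ratio of the SLIT1 record to SLIT2 was 0.580, 0.779, 2.17 and 2.64 on days 0, 5, 11 and 18.

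In the netrin system, the attractive receptor rose and the main UNC5 receptor of these cells fell. DCC (chromosome 18, 49866571 to 51057782, plus strand) stood at 13.9, 14.7, 15.1, 20.6, 24.2, 58.7 and 37.0 FPKM. It was highest at day 11, 4.21 times its day 0 level, and its change from day 0 to day 18 was 2.00. NEO1 (chromosome 15, 73344875 to 73597543, plus strand), a relative of DCC that also binds the repulsive guidance molecules, had 28.9, 37.0, 43.5, 49.7, 40.7, 45.4 and 43.1 FPKM. Its highest level was only 1.72 times its lowest, and its change was 1.17 relative to the median and 0.57 as deposited. DCC exceeded NEO1 only at day 11 among the 7 days, when their ratio was 1.29 against 0.482 at day 0.

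UNC5C (chromosome 4, 96089689 to 96470162, minus strand) gave 10.0, 7.85, 7.25, 5.62, 5.96, 2.32 and 1.29 FPKM. It was highest at day 0 and lowest at day 18, with a change of -2.26 and rank 260 from the lowest. UNC5B (chromosome 10, 72972298 to 73062635, plus strand), also known from vessels, had 1.65, 3.09, 5.98, 2.79, 3.13, 1.18 and 1.12 FPKM. It peaked at day 2, 3.62 times its day 0 level, and its change over the whole course was 0.08 relative to the median and -0.52 as deposited. UNC5A went from 0.0517 to 0.465 FPKM and UNC5D from 0.179 to 1.05, both with a mean below 1 and both highest at day 18. The summed UNC5 level was 11.9, 13.5, 4.25 and 3.93 FPKM on days 0, 2, 11 and 18. Its make-up shifted from 84.2% UNC5C to 33.0%, with UNC5B at 28.5% and UNC5D at 26.7% on day 18. DCC exceeded UNC5C by a ratio of 1.39, 4.06, 25.3 and 28.6 on days 0, 5, 11 and 18.

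The secreted netrins were low beside DCC and NEO1, and above the UNC5 sum at days 11 and 18. NTN1 (chromosome 17, 8924859 to 9147316, plus strand), the classical cue of the floor plate, had 5.20, 5.66, 4.77, 5.05, 4.91, 6.93 and 8.61 FPKM. It was highest at day 18 and rose by 1.32 relative to the median (0.72 as deposited). NTN4 (chromosome 12, 96051584 to 96184930, minus strand), a netrin of basement membranes, gave 2.16, 3.0, 2.70, 3.61, 2.69, 2.77 and 2.06 FPKM, with a change of 0.54 relative to the median and -0.06 as deposited. The pair summed to 7.36 FPKM at day 0 and 10.7 at day 18, against 42.8 and 80.1 for DCC and NEO1. Of the floor plate markers, SHH reached 0.286 FPKM at day 18.

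**Figure D3:**
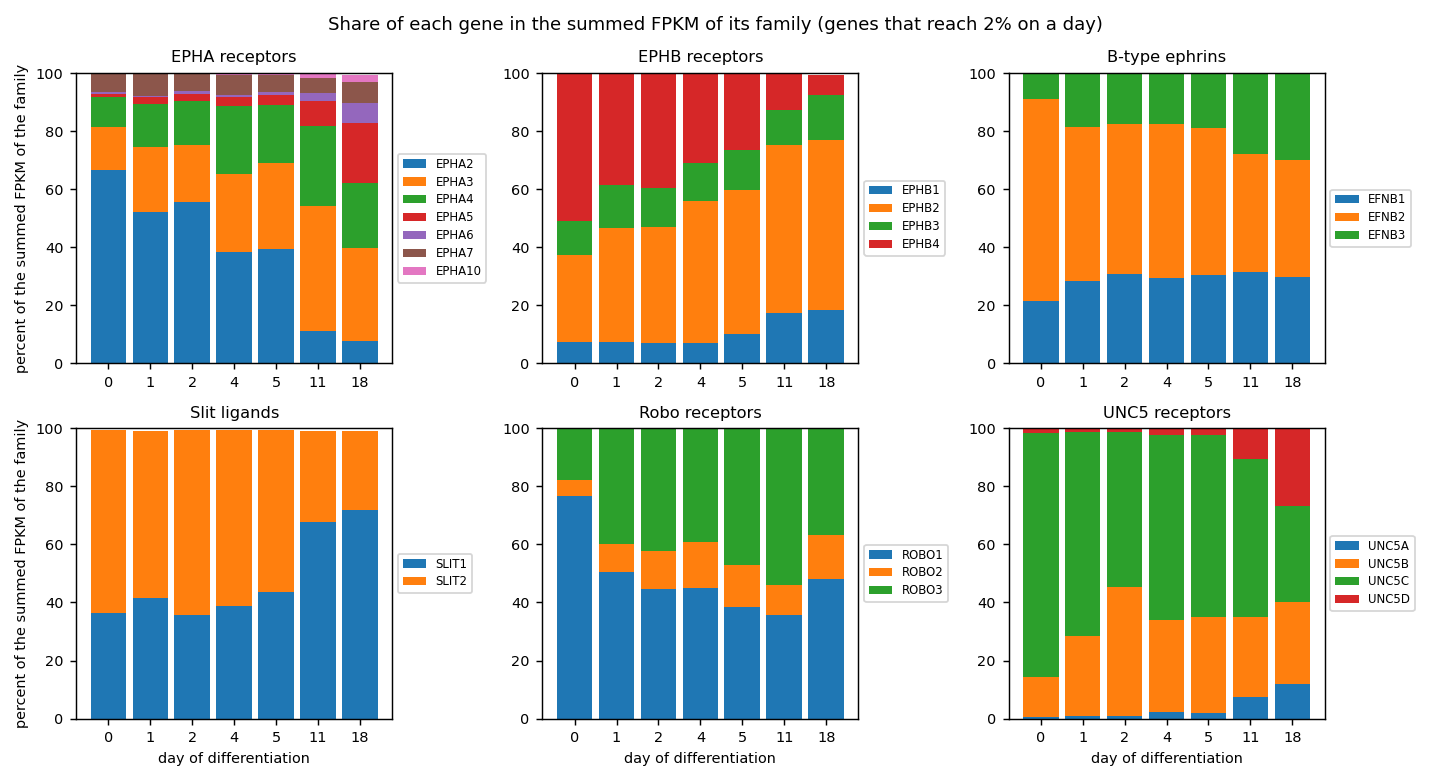
Share of each gene in the summed FPKM of its family (y axis, percent) on the 7 days (x axis), for genes that reached 2% on some day, in 6 of the families. EPHA2 shrinks from 66.5% to 7.79%, EPHB4 from 50.9% to 6.87% and UNC5C from 84.2% to 33.0%, while the SLIT1 record grows from 36.5% to 71.9%.

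By size, the largest number of changes fell into the step from day 5 to day 11. At this step 10 of the 27 records (37.0%) passed 2-fold, against 5.72% of expressed coding records. EPHA3, EPHA5, EPHA6, EPHB1, ROBO1, ROBO3 and DCC rose, and EPHA2, UNC5B and UNC5C fell. The largest were EPHA6 at 1.73, EPHA5 at 1.62, ROBO3 and DCC at 1.44 each and EPHA2 at -1.36. With a pseudocount of 1, EPHA6 (0.96), EPHA3 (0.95), UNC5B (-0.78) and UNC5C (-0.93) were under 2-fold, which leaves 6 records. EPHA3, at 1.00, was only just past the limit and EPHA4, at 0.94, just short of it. The interval is longer than that of any earlier step, so the number is not a rate. Over the same step the neuron marker sum went from 1390 to 2042 FPKM and the mesenchymal sum from 299.9 to 110.2. Their part in these changes was not tested.

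The other steps held few changes of this size. From day 0 to day 1, when 6.76% of expressed coding records passed 2-fold, ROBO3 did so (1.5), with ROBO2 (0.99) and UNC5B (0.97) just short of it. From day 2 to day 4 UNC5B fell (background 0.78%), with a change of -1.07. No record passed from day 1 to day 2 or from day 4 to day 5, against a background of 0.271% and 0.416%. The step across the replating at day 4 thus moved none of the 27 records by 2-fold, and its largest change was that of ROBO3 at 0.67. Slower effects of the new surface were not tested. From day 11 to day 18 EPHA5 (1.35) and EPHA6 (1.45) rose, against a background of 3.24%.

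**Figure D4:**
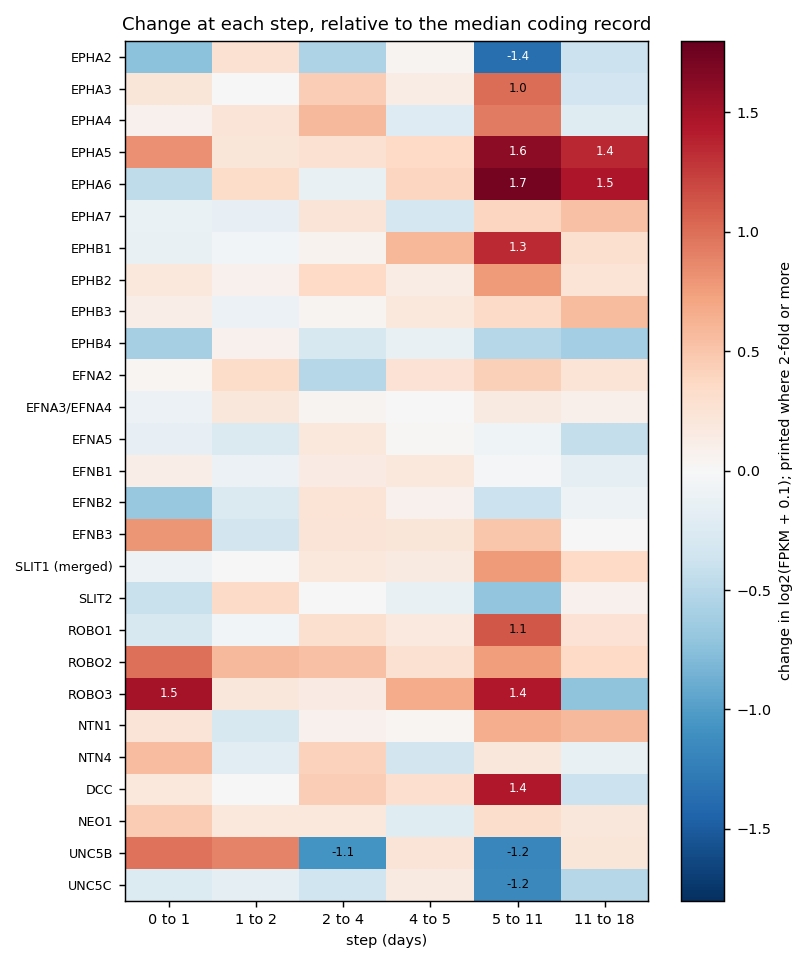
Change in log2(FPKM + 0.1) of the 27 expressed records (y axis) at each of the 6 steps between sampled days (x axis), relative to the median coding record. Red is higher and blue lower on the later day, and values of 2-fold or more are printed. The column from day 5 to day 11 holds 10 of the printed values.

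The day of the highest level was compared as well, using FPKM as deposited, so these counts depend on the scaling of each day. Of the 27 records, 7 were highest at day 11 (25.9%) and 7 at day 18 (25.9%), against 8.60% and 8.74% of expressed coding records, and 7 at day 0 (25.9%) against 44.8%. Those with a peak at day 11 were EPHA3, EPHA4, EPHB2, EFNB3, ROBO1, ROBO3 and DCC. Relative to the median, EPHB2 (0.24), ROBO1 (0.25) and EFNB3 (0.01) were instead higher at day 18 than at day 11. Over all 36 records the summed level was 454, 560.4 and 461 FPKM on days 0, 11 and 18, while that of all coding records went from 358700 to 216200. The leading genes changed with it. EFNB2, EPHA2, EFNB1, SLIT2 and NEO1 were the 5 highest at day 0, and ROBO1, NEO1, EPHB2, DCC and ROBO3 at day 18, when their levels lay between 35.3 and 46.1 FPKM. Without replicate values, the order of such close levels cannot be judged.

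Genes that act with these cues were counted in the same way from day 0 to day 18. Of 21 expressed partners of Eph and ephrin signalling, 5 rose and 1 fell, with a median change of 0.11, against the same background of 14.7% and 12.1%. As deposited, 2 (CHN2 and PTPRO) were at least 2-fold higher and 6 lower, against a background of 7.57% and 29.9% on that scale. PTPRO, a phosphatase that acts on Eph receptors, went from 1.52 to 10.2 FPKM (3.27). The Rac regulator CHN2 went from 1.98 to 5.78, the exchange factor KALRN from 8.73 to 16.4, the adaptor ANKS1B from 7.68 to 12.3 and LMO7 from 1.36 to 2.33. The Src-family kinase YES1 fell, from 32.6 to 9.85 FPKM (-1.12).

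Among 17 expressed partners of Slit and Robo, 2 rose and 1 fell, with a median of 0.38. Neither share exceeded the background of 14.7% and 12.1%. As deposited, 1 (SRGAP3) was at least 2-fold higher and 4 were lower, against the same 7.57% and 29.9%. SRGAP3, a GTPase-activating protein that binds Robo receptors, had 9.36, 13.3, 11.8, 18.4, 23.5, 48.3 and 31.8 FPKM, and like ROBO3 and DCC it was highest at day 11. The actin regulators EVL and VASP, which belong to 1 family, went opposite ways. EVL rose from 55.3 to 83.2 FPKM (1.19, or 0.59 as deposited) and VASP fell from 33.6 to 5.51 (-1.99).

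Of 16 expressed partners of the netrin system, 8 rose and none fell, against 14.7% and 12.1% of expressed coding records. Their median change was 1.04. The steepest was TRIM67, a ligase related to the DCC partner TRIM9, from 0.191 to 8.57 FPKM (5.50). TRIM9 itself went from 8.12 to 16.5. The netrin-G genes NTNG1 and NTNG2, which encode membrane-anchored relatives of the netrins, went from 3.38 to 8.21 and from 0.780 to 1.5, and LRRC4C, the partner of netrin-G1, from 5.77 to 9.30. RGMA, a ligand of NEO1, went from 34.6 to 62.8, with 80.0 at day 11. FLRT1 went from 0.354 to 2.47 and MCAM, also found on vessel cells, from 2.67 to 4.00. Like EPHA6, FLRT1 passed the minimum, with a mean of 1.03 FPKM, only through days 11 and 18. As deposited, 4 were at least 2-fold higher and 1 was lower, against 7.57% and 29.9% of expressed coding records. On that scale NTNG2, LRRC4C, RGMA and MCAM stayed under 2-fold, with changes between 0.57 and 0.86.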

How the data were processed

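Poly-A RNA of 20 samples (7 days, 2 or 3 cultures a day, grouped by the sample titles) was sequenced. In the study's methods, reads had been aligned by the authors to hg19 by TopHat2, and transcripts assembled by Cufflinks and quantified by Cuffdiff2, run with defaults. Versions are not given in the sources used here. The deposited FPKM values are 1 estimate per record and day. Columns for single samples numbered 0, so no replicate spread, test or detection limit could be computed, and depth is unknown. The authors' table of adjacent days also holds fold changes, test statistics, p-values and q-values, which were not used. Of it, the marks for too few fragments and for failed tests were counted.

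Changes in log2(FPKM + 0.1) were centred on the median of the 11793 of 20237 coding records whose mean FPKM was 1 or more, and counted at 2-fold. All 37 genes are named, those with a mean of at least 1 with every day's value. Partner and marker genes are named at 2-fold, and other genes where a result turns on them. Of 23, 19 and 22 listed partner names, which include synonyms of the same gene, 22, 18 and 20 were found. Genes and lists were chosen with earlier results of these data known. The counting script was tested on simulated data. Alternatives were the pseudocount, minimum level, scaling, fold, and handling of merged or repeated records. Python 3.11.15, numpy 2.4.6, pandas 2.3.3 and matplotlib 3.10.9 were used.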

Additional observations from a re-analysis of the deposited data

How the results depend on the processing

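No paired analysis was possible because the files hold 1 value per day and no value of a single culture, and for the same reason no culture could be left out in turn. Of the changes past 2-fold, none took the opposite sign under the alternatives run. With a pseudocount of 1, the records past 2-fold numbered 0 at the step to day 4 and 6 at that to day 11. With a minimum mean of 0.1 FPKM, and with none, 5 passed from day 11 to day 18. As deposited, 7 records were higher at day 18 than at day 0. With a fold of 1.5, the counts were 8, 1, 2, 2, 16 and 4 at the 6 steps in order. With a fold of 3, 7 records were higher at day 18 than at day 0, 2 passed from day 5 to day 11, and 0 passed at the steps to days 1, 4 and 18. Among single changes, 10 fell under 2-fold and 3 passed it as deposited, and 5 fell under it with a pseudocount of 1 (EPHA3, EPHA6, UNC5B and UNC5C to day 11, and UNC5B to day 4). A minimum mean of 0.1 FPKM kept 34 records, 0.5 kept 28, and leaving out merged records kept 25. Summing repeated records of a name tested nothing here, since each gene has 1 coding record. Unknown depth limits the genes below 1 FPKM most.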

Other observations

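The catalogue of the study also holds 56 long intergenic noncoding records named after 27 of these guidance genes, of which 10 had a mean of at least 1 FPKM. The name does not mark a shared function, and not always a close neighbour. The highest was linc-EPHA6-3 (chromosome 3, 96068212 to 96071083, plus strand), which lies 462342 bases from EPHA6 and had 117 FPKM at day 0 and 52.2 at day 18, a relative change of -0.56, while EPHA6 itself rose by 3.32. Exons of another record on the other strand cover 92.3% of its exon bases, so its level is uncertain. Of the 10, 2 passed 2-fold from day 0 to day 18, against 26.8% of expressed coding records in either direction. The share over all noncoding records was not computed. One was linc-EPHA5-BP (chromosome 4, 66535238 to 66559310, plus strand), whose span overlaps the start of EPHA5 on the other strand. It had 1.25, 2.17, 2.26, 3.38, 3.19, 7.91 and 12.6 FPKM on the 7 days, a relative change of 3.83 beside 4.66 for EPHA5. The other was linc-EPHA6-1 (chromosome 3, 96496099 to 96496877, plus strand), which went from 6.78 to 1.33 FPKM. A second record of that name, 100469330 bases from EPHA6, had 0.897 FPKM at day 0 and 0.814 at day 18.

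The record linc-SLIT2-AS (chromosome 4, 20253522 to 20256532, minus strand), over the start of SLIT2, had 11.0, 5.24 and 4.29 FPKM on days 0, 11 and 18, a relative change of -0.73 against -0.79 for SLIT2. The record linc-DCC-AS (chromosome 18, 49862076 to 49867413, minus strand), with a mean below 1 FPKM, had 0.399, 1.54 and 0.940 on days 0, 11 and 18, and DCC was also highest at day 11. Each of these pairs overlaps on opposite strands, and how fragments were divided between strands was not tested. They were singled out after their values had been seen.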
